A study of Mus musculus with 8 samples.

Results

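MicroRNA gene loci are the genes that the GENCODE M21 annotation of the mouse genome (mm10) types as miRNA, taken here on chromosomes 1 to 19. Of the 51229 annotated autosomal genes, 2054 were such loci, and each was given a region of the gene plus 2 kb on either side. A locus within 1 kb of the transcription start site of a protein-coding gene was called promoter-proximal and kept apart (226 loci), which left 1828 other loci. By name, 1088 loci carried a Mir symbol and 966 were predicted genes, most of them with a Gm number. Regions that overlap were common, so that the 2054 loci formed 1756 separate stretches of the genome, and neighbours in a stretch often shared 1 peak.

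The chromatin was that of SN4741, a mouse line labelled as neural precursor cells of genotype WT and made from embryonic substantia nigra with a temperature-sensitive SV40 T antigen driven by the tyrosine hydroxylase promoter, and a line reported elsewhere as clonal but found by the study to be polyploid and unstable in karyotype. ATAC-seq, in which a transposase cuts open chromatin, was run by the Omni-ATAC protocol on aliquots of 50000 cells, with 4 libraries at 37 °C in 10% serum and 4 libraries after 48 h at 39 °C in 0.5% serum. Temperature and serum changed together and cannot be told apart, and it is not given in the sources used here whether the 4 libraries of a temperature came from separate cultures, so the spread between them may be technical. Fragments kept per library ran from 49.8 M to 169 M, with 37 °C replicates 1 and 4 (169 M and 158 M) above all others (at most 71.2 M). Peaks per library ran from 74026 to 92013 at 37 °C and from 54845 to 68410 at 39 °C. Of the markers checked for a promoter peak, 5 of 6 neural precursor genes (Nes, Sox2, Pax6, Vim and Msi1, not Fabp7) and 4 of 4 mesenchymal genes had one in all 8 libraries. Of 6 dopaminergic genes, Th, Nr4a2 and Pitx3 had one in all 8 libraries, Slc6a3 had one in 4 libraries at 37 °C and 1 at 39 °C, and Slc18a2 and Ddc had none. Of the blood and epithelial markers, Ptprc and Gata1 had no promoter peak in any library, Spi1 and Cdh1 had one in 3 libraries at 37 °C and 0 at 39 °C, and Epcam had one in 4 and 3 libraries.

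A microRNA gene is transcribed as a long primary transcript, from its own promoter or from that of a host gene, and the hairpin in it is cut out to give a short mature RNA. Bases 2 to 8 of the mature RNA, the seed, pair with target messages and lower their output, so microRNAs with the same seed share many targets. In the brain, miR-124 and miR-9 are known for neuronal identity and neural progenitors, miR-132 and miR-212 for activity-dependent growth, and miR-219 and miR-338 for oligodendrocyte maturation. The miR-34 family is a textbook target of p53, the tumour suppressor that T antigen binds. An open hairpin region is not a measure of the mature RNA, which was not assayed here.

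The mature sequences below belong to the loci on which the results turn, and are shown with the seed in capitals so that families can be read from them. They come from RefSeq on GRCm38.p6, where 940 of the 2054 loci were found by symbol. The miR-34 pair shares 1 seed, as do miR-132 and miR-212, miR-181c and miR-181d, and let-7e and let-7i. The other microRNAs shown each have a seed of their own among those printed, including miR-219a and miR-219b, whose genes lie on opposite strands of the same place.
mmu-miR-34a-5p: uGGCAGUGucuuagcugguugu
mmu-miR-34b-5p: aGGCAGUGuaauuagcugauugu
mmu-miR-132-3p: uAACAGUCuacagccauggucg
mmu-miR-212-3p: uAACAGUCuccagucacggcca
mmu-miR-181c-5p: aACAUUCAaccugucggugagu
mmu-miR-181d-5p: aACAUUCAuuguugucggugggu
mmu-let-7e-5p: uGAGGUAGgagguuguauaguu
mmu-let-7i-5p: uGAGGUAGuaguuugugcuguu
mmu-miR-9-5p: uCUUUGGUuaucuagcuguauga
mmu-miR-219a-5p: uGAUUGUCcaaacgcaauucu
mmu-miR-219b-5p: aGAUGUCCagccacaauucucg
mmu-miR-135a-5p: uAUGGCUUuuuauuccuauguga
mmu-miR-7a-5p: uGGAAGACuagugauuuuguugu
mmu-miR-192-5p: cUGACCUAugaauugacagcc
mmu-miR-194-5p: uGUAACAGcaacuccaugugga
mmu-miR-199b-3p: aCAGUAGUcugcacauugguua

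Most microRNA loci were closed in these cells, and promoter-proximal loci were the exception. A peak lay in the region in at least 1 library at 820 loci, in all 8 libraries at 506 loci (24.6%) and in no library at 1234 loci (60.1%). Among autosomal windows of the median region length, 4090 bp, 9.67% were called in all 8 libraries. Of the promoter-proximal loci, 167 of 226 (73.9%) were called in all 8 libraries, against 339 of 1828 (18.5%) of the other loci. A locus called in no library had no peak at the caller's threshold, which does not show that its chromatin was shut in every cell.

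The share of loci with a peak was lower in every library at 39 °C than in every library at 37 °C. It was 37.4%, 33.9%, 33.1% and 38.1% in 37 °C replicates 1 to 4 and 29.5%, 28.1%, 28.3% and 25.4% in 39 °C replicates 1 to 4. The means were 35.6% ± 2.49 (SD, n = 4) and 27.8% ± 1.72 (SD, n = 4), a difference of -7.78 percentage points. Promoter-proximal loci went from 83.5% ± 1.32 to 76.4% ± 1.59 and the other loci from 29.7% ± 2.65 to 21.8% ± 1.75 (SD, n = 4 each), again without overlap between temperatures.

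**Figure D1:**
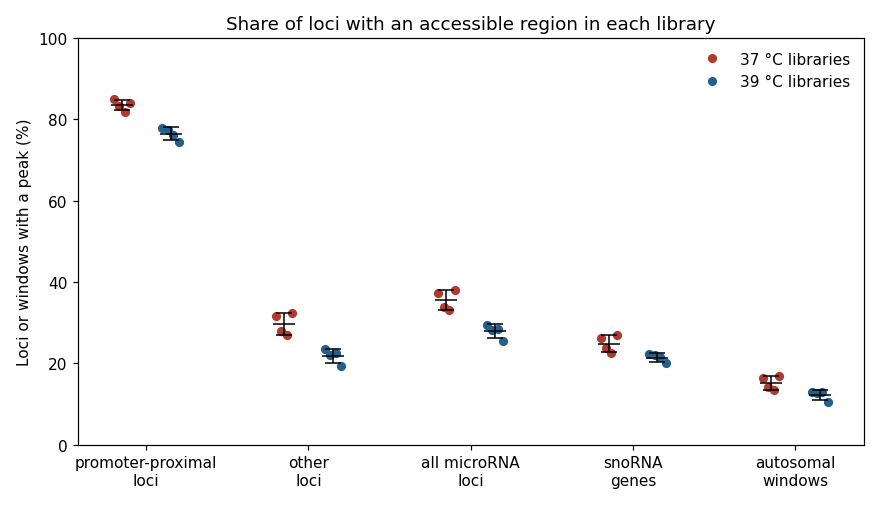
Percent of loci or windows with a peak (vertical axis, from 0) in each library, for promoter-proximal microRNA loci, other microRNA loci, all microRNA loci, snoRNA genes and autosomal windows of 4090 bp. Points are libraries (4 per temperature), bars are the mean with 1 SD; the 39 °C points lie below the 37 °C points in every set, by -7.78 percentage points on average for all microRNA loci and by -2.97 for the windows.

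The lists at 39 °C were also shorter, and windows across the genome moved the same way, from 15.2% ± 1.66 to 12.2% ± 1.17 (SD, n = 4). As a ratio to that window share, the share of microRNA loci was 2.36 ± 0.0966 at 37 °C and 2.29 ± 0.102 at 39 °C, ranges that overlapped. When each list was cut to its 54845 strongest peaks, the share of microRNA loci was 28.2% ± 0.703 at 37 °C and 25.6% ± 0.493 at 39 °C, a difference of -2.69 points. Windows then differed by -0.777 points. With all peaks, other small RNA genes with the same flanks were open at a lower rate. At 37 °C and 39 °C, snoRNA genes stood at 24.8% and 21.4% and snRNA genes at 20.5% and 16.5%. Genes of the misc_RNA type stood at 28.8% and 24.1%. Predicted microRNA genes without a Mir name were near the snoRNA genes, at 25.6% and 20.9%. With equal numbers of peaks, snoRNA genes stood at 20.9% and 20.0% and snRNA genes at 17.2% and 15.3%.

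Where a locus lay went with how often it was open. Of the loci that were not promoter-proximal, those overlapping an exon of a coding gene had a peak in 49.9% ± 5.93 at 37 °C and 32.3% ± 2.81 at 39 °C, and those in introns of coding genes in 32.3% ± 2.41 and 22.9% ± 2.08. Loci in lncRNA genes had a peak in 28.8% ± 2.82 at 37 °C, with a difference of -3.79 points at 39 °C and overlap between the temperatures, and loci between genes in 20.3% ± 2.09 and 16.4% ± 1.16 (SD, n = 4 each). Once the lists were cut to equal numbers of peaks, loci in lncRNA genes stood at 23.03% ± 0.495 and 23.5% ± 0.763 (SD, n = 4 per temperature), a difference of 0.45 points the other way, and that between genes differed by -0.157 points, both with overlap. Loci in introns and exons of coding genes still differed then, by -4.31 and -8.67 points, without overlap. Outside promoters, Mir-named loci had a peak in 38.9% and 28.5% at 37 °C and 39 °C, and predicted genes without such a name in 19.5% and 14.4%. These differences of -10.4 and -5.07 points became -4.14 and -1.53 with equal numbers of peaks, still without overlap.

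Several large clusters had no peak along their whole length. The cluster of 119 overlapping loci on chromosome 2, from Gm22072 to Mir669h, had no peak in any library. The same held for the 3 stretches of 13, 29 and 14 loci on chromosome 12 (Mir337 to Mir136, Mir379 to Mir544 and Mir382 to Mir410), the imprinted cluster best known from neurons. The stretch of 5 loci from Mir302b to Mir367 on chromosome 3, known from pluripotent cells, had none either. Of the 9 loci from Mir290a to Mir295 on chromosome 7, also known from pluripotent cells, 3 (Mir293, Mir294 and Mir295) had a peak in 1 library at each temperature and the other 6 had none. All 6 loci of the Mir17 to Mir92-1 cluster on chromosome 14, known for driving proliferation, were called in all 8 libraries, in each of them through the same peak for all 6. That peak reached only the flank on the upstream side, covered none of the 6 hairpins in any library and had its summit 2787.5 to 3541.5 bp from them.

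Peaks at the open loci were strong in promoters and moderate elsewhere. Strength is given as the percentile of the locus's best peak by −log10 q within its own library's list, where 100 is the strongest and 50 the middle. The median over promoter-proximal loci called in all 8 libraries lay between 89.8 and 94.9 in the 8 libraries, and that over the other loci called in all 8 between 65.7 and 83.7. For these other loci it was 76.9 to 83.7 at 37 °C and 65.7 to 74.3 at 39 °C. The lists at 39 °C were shorter, so a lower percentile there is not by itself a lower accessibility. The peak covered the hairpin gene itself in all 8 libraries at 85.6% of the 167 promoter-proximal loci and at 38.1% of the 339 other loci. The summit, the point of highest pileup, lay within 500 bp of the hairpin centre at 59.3% of the promoter-proximal loci and at 19.8% of the others, and outside the region altogether at 21 and 116 loci.

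**Figure D2:**
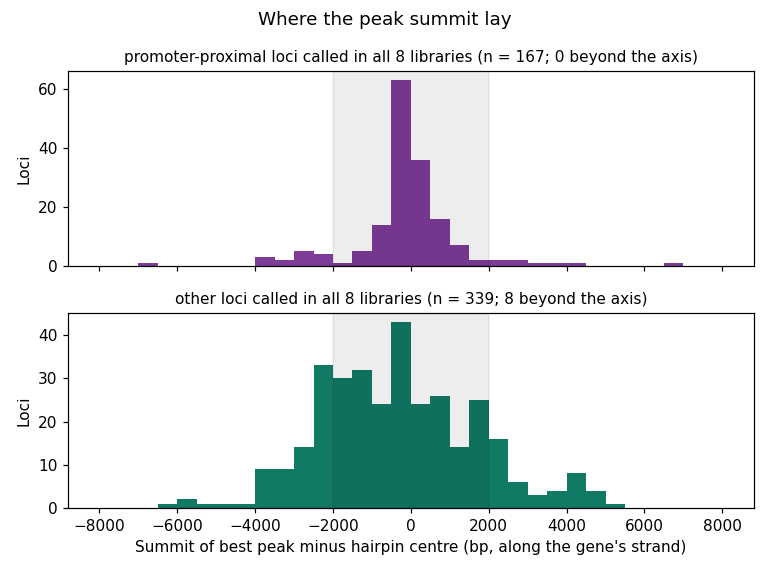
Distance in bp from the hairpin centre to the summit of the best peak (median over 8 libraries, negative values upstream on the gene's strand), as counts of loci in bins of 500 bp, for the 167 promoter-proximal and the 339 other loci called in all 8 libraries. The grey band marks 2000 bp on either side; summits of promoter-proximal loci pile up at the hairpin and those of other loci are spread across the band, 116 of them outside the region.

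The sequence under the summits differed in make-up between the groups. In the 201 bp around the summit, the median GC content was 67.2% in 160 promoter-proximal regions, 57.2% in 351 other microRNA regions and 51.7% in all 43735 autosomal regions called in all 8 libraries. The AP-1 motif TGANTCA, read on both strands, was present in 6.88% of the promoter-proximal regions, 23.9% of the other microRNA regions and 31.2% of all regions. The p53 decamer was present in 3.12%, 4.27% and 6.84%, and a pair of p53 decamers at the spacing of a full site in 0 microRNA regions and 0.128% of all regions. The RE1 motif, bound by the neuronal repressor REST, was present in 1 of the microRNA regions, that of Mir132 and Mir212, and in 0.114% of all regions. Motif matches are descriptions of these letters and not of binding.

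The 3 summit windows below are shown because each holds a motif beside a locus described below, with the match in capitals on the forward strand of GRCm38.p6. The Mir132 and Mir212 window, chr11:75173349-75173549, holds the RE1 match and runs through the Mir212 hairpin. The Mir34a window, chr4:150070232-150070432, holds an AP-1 match beside the summit. The Mir192 and Mir194-2 window, chr19:6262257-6262457, holds a p53 decamer and lies outside the regions of both loci. No p53 decamer was in the summit windows of Mir34a or of Mir34b and Mir34c, and 1 was in that of the neuronal locus Mir9-2. Only the 201 bp at 1 summit were searched, 1828 bp from the hairpin centre at Mir34a. Whether a p53 site lies elsewhere at these genes was not tested.
Mir132 and Mir212 window: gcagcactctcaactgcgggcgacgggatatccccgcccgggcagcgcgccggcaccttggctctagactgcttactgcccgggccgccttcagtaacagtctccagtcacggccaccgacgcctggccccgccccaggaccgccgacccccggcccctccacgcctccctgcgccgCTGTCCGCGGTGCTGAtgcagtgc
Mir34a window: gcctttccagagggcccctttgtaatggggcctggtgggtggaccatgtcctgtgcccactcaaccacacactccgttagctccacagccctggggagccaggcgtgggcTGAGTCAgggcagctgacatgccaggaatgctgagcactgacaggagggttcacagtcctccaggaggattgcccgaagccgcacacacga
Mir192 and Mir194-2 window: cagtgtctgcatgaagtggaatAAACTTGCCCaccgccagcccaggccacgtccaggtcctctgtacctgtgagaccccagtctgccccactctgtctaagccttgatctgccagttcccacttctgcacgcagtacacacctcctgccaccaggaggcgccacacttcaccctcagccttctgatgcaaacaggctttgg

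Of the 45 loci in the neuronal list, 13 (28.9%) were called in all 8 libraries, 4 in all libraries at 37 °C and none at 39 °C, 4 in some other pattern and 24 (53.3%) in none. Over all microRNA loci, 24.6% were called in all 8, 3.31% at 37 °C alone and 60.1% in none. The neuronal list includes Mir219a-1, Mir219a-2, Mir219b and Mir338, of the families described above as known for oligodendrocyte maturation. They make up 2 of its 13 loci called in all 8 and 2 of its 4 called at 37 °C alone. Neuronal loci here and below are the members of this list. The number of neuronal loci with a peak was 19 to 21 per library at 37 °C and 13 to 16 at 39 °C. The 24 closed loci include both copies of Mir128, Mir138 and Mir218, the single loci Mir137, Mir153, Mir184 and Mir326, Mir133b, which is known from midbrain dopamine neurons, and the 7 listed members of the chromosome 12 cluster.

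The 3 miR-9 genes were open to different degrees. Mir9-1, in an intron of the lncRNA gene Gm3764 (chr3:88215598-88215686), lay at the percentiles 76.9, 75.4, 72.2 and 78.3 at 37 °C and 71.2, 66.8, 68.6 and 61.7 at 39 °C, with the summit 400.0 bp upstream of the hairpin centre. Mir9-2, in an exon of C130071C03Rik (chr13:83738814-83738885), lay at 72.1, 69.9, 62.6 and 74.3 and at 68.2, 63.1, 64.6 and 60.0. Both were called in every library. Among the regions called in all 8 libraries, Mir9-1 had mean percentiles of 56.8 and 55.3 at 37 °C and 39 °C. Mir9-2 had 46.6 and 51.1 there, and the temperatures overlapped at both loci. Mir9-3 (chr7:79505264-79505353) had weaker peaks, at 27.2, 23.7, 28.1 and 33.5 at 37 °C and at 6.78, 14.8 and 13.1 in 39 °C replicates 1 to 3, and none in replicate 4.

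Of the 3 miR-124 genes, which encode the same neuronal microRNA, 1 was open throughout. Mir124a-3 (chr2:180894040-180894107), between genes, lay at 70.3, 64.3, 62.9 and 69.2 at 37 °C and 53.8, 56.1, 59.5 and 45.7 at 39 °C. Mir124a-1 had a peak only in 37 °C replicate 1, the deepest library, at percentile 3.46, and Mir124a-2 had none. By percentile in the lists, the highest loci of the neuronal list were Mir132 and Mir212 on chromosome 11, which share 1 peak with its summit in the Mir212 hairpin and a mean percentile of 93.6. Mir219a-1 on chromosome 17, the promoter-proximal member of the list, followed at 92.4 with a summit 6748 bp away. Among regions called in all 8 libraries the order differed. Mean percentiles at 37 °C and 39 °C were 91.8 and 92.1 at Mir338, 90.7 and 91.4 at Mir219a-1, and 88.7 and 90.5 at Mir132 and Mir212.

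Loss of the call at 39 °C was seen at 2 places of the neuronal list. That of Mir219a-2 and Mir219b belongs to the family known for oligodendrocyte maturation. Mir181c and Mir181d, a pair in an intron of Nanos3 on chromosome 8, had a shared peak at percentiles 21.6, 24.9, 16.01 and 20.8 at 37 °C and none at 39 °C, and Mir219a-2 with its antisense partner Mir219b had peaks at 19.8, 5.64, 4.48 and 28.98, with summits up to 1077 bp apart, and none at 39 °C. These were weak peaks, and with equal numbers of peaks per list none of the 4 loci kept a call at either temperature. Mir135a-1, in Glyctk, was called in 4 libraries at 37 °C and 1 at 39 °C, and with equal numbers of peaks in 4 and 0.

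**Figure D3:**
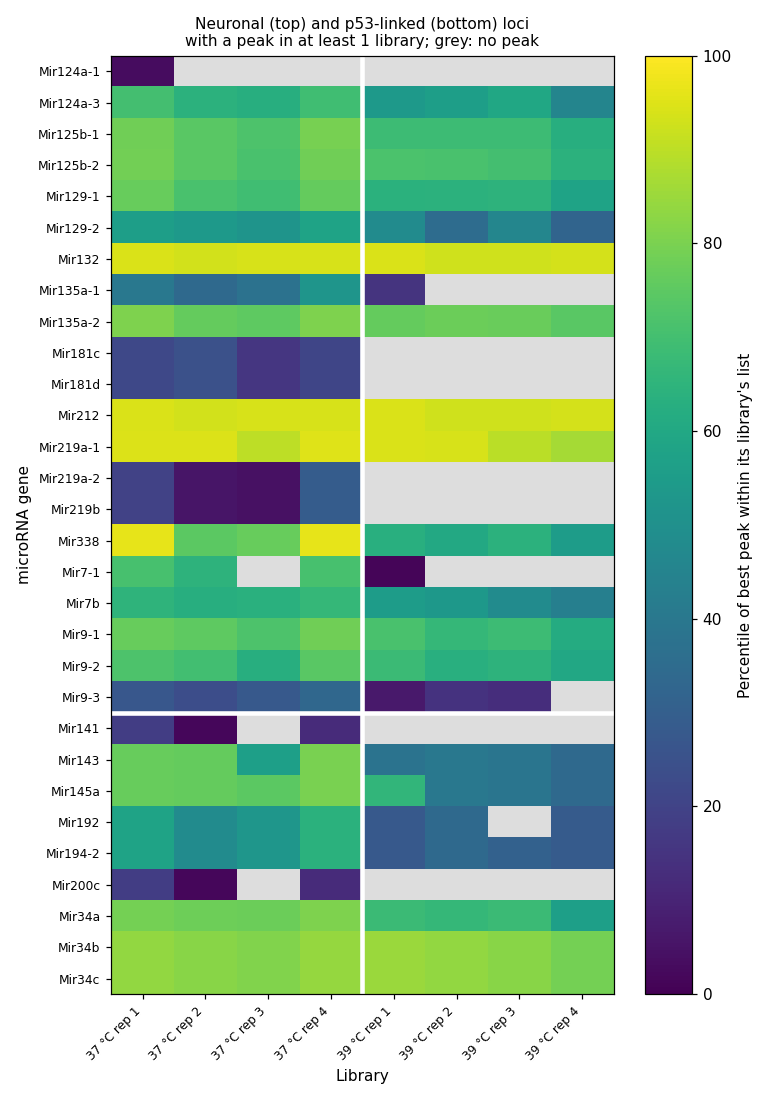
Percentile of the best peak within its library's list (colour, 0 to 100) for each neuronal (top) and p53-linked (bottom) microRNA locus called in at least 1 of 8 libraries, 4 per temperature; grey marks no peak. Mir132 and Mir212 are bright in all 8 columns, the Mir181c/Mir181d and Mir219a-2/Mir219b rows turn grey at 39 °C, and the Mir34b and Mir34c rows hardly change while Mir34a darkens. The lists at 39 °C are shorter, so a darker colour there is not by itself a lower accessibility.

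Of the 15 p53-linked loci, at 9 separate stretches, 6 were called in all 8 libraries, 3 in some other pattern and 6 in none (40.0% in all 8 and 40.0% in none, against 24.6% and 60.1% of all microRNA loci). The closed loci were Mir107, Mir15a, Mir16-1, Mir194-1, Mir215 and Mir145b. Mir141 and Mir200c were called in 3 libraries at 37 °C and 0 at 39 °C, by weak peaks with summits up to 2353 bp apart between libraries. All 3 miR-34 genes were open in every library. Mir34a (chr4:150068454-150068555), between genes, lay at 79.3, 78.1, 77.4 and 80.8 at 37 °C and 68.1, 66.6, 68.0 and 56.6 at 39 °C. Mir34b and Mir34c, in an intron of Btg4 on the opposite strand (chromosome 9), share 1 peak that lay at 83.7, 82.3, 80.9 and 84.2 and at 84.9, 83.7, 82.4 and 79.2. The nearest coding start site, that of 4833427G06Rik, is 956 bp from Mir34c and 1484 bp from Mir34b, so that only the first counts as promoter-proximal.

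Counts in the remaining lists were as follows. Of 11 proliferation-linked loci, 10 were called in all 8 libraries, where 24.6% of all microRNA loci were. These 10 lie at only 3 places, the Mir17 cluster, the Mir106b cluster and Mir21a. A peak covered the hairpin in all 8 libraries at 4 of them, those of the Mir106b cluster and Mir21a, where 13.2% of all microRNA loci had one, and the summits at the Mir106b cluster lay 4220.0 to 4635 bp away. Mir21a had a mean percentile of 97.4, from a peak 15188 bp long in the median with its summit 2944.5 bp away and outside the region. Mir155 was called in 3 libraries at 37 °C and 0 at 39 °C. Of 10 let-7 loci, 4 (40.0%) were called in all 8, with Mirlet7i at 94.0 and Mirlet7e at 94.6 from a summit 3346 bp upstream, and 4 in none. Of 14 mesenchymal loci, 5 (35.7%) were called in all 8, and of 39 loci of other lineages 4 (10.3%) were, with 27 in none. These 4 were Mir150, Mir203, Mir206 and Mir499, best known from lymphocytes, epidermis, skeletal muscle and heart, and the summits at Mir150 and Mir499 lay 4921 and 2072.5 bp away. Peaks more frequent at 39 °C were rare and weak in these lists, as at Mir196a-1 (2 libraries at 37 °C and 4 at 39 °C, mean percentile 4.53) and Mir133a-2 (0 and 2, mean percentile 5.71).

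Over all loci, 279 (13.6%) were called in fewer libraries at 39 °C than at 37 °C and 25 (1.22%) in more, against 6.82% and 1.18% of autosomal windows. A call in all 4 libraries at 37 °C and none at 39 °C was found at 68 loci (3.31%), in 63 separate stretches, against 0.864% of autosomal windows. No locus showed the opposite pattern, which 0.0447% of windows did. Read within the 648 loci called in all 4 libraries at 37 °C, the 68 are 10.5%, against 6.85% of the windows so called. Once every list was cut to the same number of peaks, the counts were 27 loci at 37 °C alone (1.31%) and 3 at 39 °C alone (0.146%), against 0.35% and 0.188% of windows. In the full lists, with the summit required inside the region, they were 56 (2.73%) and 6 (0.292%), against 0.724% and 0.0666% of windows. With both conditions together they were 12 (0.584%) and 7 (0.341%), against 0.238% and 0.199% of windows.

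The 68 loci were weak as a group, with a median percentile between 16.01 and 24.5 in the 37 °C libraries. The 6 Mir-named loci outside promoters with the highest percentiles among them were different in kind. At Mir7085, Mir7032, Mir6952, Mir6966, Mir6931 and Mir7037, all within coding genes, the median summit lay 2172 to 7208.5 bp from the hairpin centre, and the peaks were 2617 to 9540 bp long in the median. At Mir7085 in Slc37a4, for example, the percentiles at 37 °C were 92.4, 93.7, 94.0 and 94.5, with the summit 3463.5 bp upstream and outside the region. The merged regions that touch these 6 loci were called in all 8 libraries, and their ranks differed between temperatures by -0.076 to 0.088 on the normal-score scale described next, with adjusted p from 0.134 to 0.99. With a summit required inside the region, Mir6931 kept a call in all 4 libraries at 37 °C, Mir7085 had none and the other 4 were called in some libraries.

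To compare temperatures without the length of the lists, the regions called in all 8 libraries were ranked against each other in every library, the ranks turned into normal scores and tested with limma, and each locus took the result of its strongest region. Of 570 loci with such a region, 61 (10.7%) ranked higher at 39 °C and 107 (18.8%) lower at an adjusted p below 0.05. Of all 43735 regions tested, 18.4% ranked higher and 19.9% lower. Counting each shared region once, 59 and 98 of 511 regions passed. The median difference was -0.02 over the loci and -0.009 over all regions. In promoter-proximal loci 15 of 173 ranked higher and 35 lower (8.67% and 20.2%), where all regions within 1 kb of a coding start site gave 7.87% and 13.4%. In the other loci 46 of 397 ranked higher and 72 lower (11.6% and 18.1%), where all remaining regions gave 22.5% and 22.4%. Without the 2 deepest libraries, 36 loci ranked higher (6.32%) and 66 lower (11.6%), against 13.7% and 11.7% of all regions. In the wider set of regions called in at least 2 libraries at each temperature, 28 of 633 loci ranked higher (4.42%) and 81 lower (12.8%), against 7.88% and 12.6% of all 56915 regions, so that calls were fewer across the genome there. Each library ranked only the regions it had called itself in that set, so its scores do depend on the length of the lists. With the replicate block, 49 ranked higher (8.60%) and 91 lower (15.96%), against 16% and 16.7% of all regions. Of the 27 called loci tested in this way and named below, 17 lost their call in at least 1 alternative, as given beside each.

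The miR-34 genes split in this ranking. Percentiles here are among the regions called in all 8 libraries. The Mir34a region stood at 61.1, 63.1, 63.8 and 61.1 at 37 °C and 54.6, 52.9, 53.2 and 49.5 at 39 °C. The difference in normal score was -0.25 (SE 0.039, limma adjusted p = 0.00171), and the temperatures did not overlap. The region of Mir34b and Mir34c stood at 69.4, 70.1, 69.2 and 67.9 and at 78.2, 76.7, 73.8 and 75.2, a difference of 0.21 (SE 0.039, limma adjusted p = 0.00439), again without overlap. The Mir34b and Mir34c call was lost when all regions called in at least 2 libraries at each temperature were ranked (limma adjusted p = 0.103), and the Mir34a call was kept in every alternative run.

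Of the other p53-linked loci, 4 ranked lower, at 2 places. The region of Mir143 and Mir145a fell from a mean of 58.9 ± 1.64 to 49.2 ± 3.78 (SD, n = 4; limma adjusted p = 0.00733), a call lost in the wider set of regions called in at least 2 libraries at each temperature (limma adjusted p = 0.0762). The median summit lay 1834.5 bp from Mir143 and 3971.5 bp from Mir145a, the latter outside its region. Summits lay up to 3646 bp apart between libraries, and with a summit required inside the region both loci were called in only some libraries. The region of Mir192 and Mir194-2 stood at 22.9, 17.9, 27.1 and 27.9 at 37 °C and 7.38, 13.4, 9.06 and 20.1 at 39 °C, with overlap (difference -0.47, SE 0.136, limma adjusted p = 0.0265), and this call was lost without 37 °C replicate 1, 3 or 4 or 39 °C replicate 1 or 3 (limma adjusted p from 0.0527 to 0.0715) and without the 2 deepest (0.151). In all, 2 of the 7 p53-linked loci tested ranked higher and 5 lower, at 4 separate regions, beside the 18.4% and 19.9% over all regions.

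Of the 14 neuronal loci tested, 1 ranked higher and 1 lower, beside the 18.4% and 19.9% over all regions, with a median difference of -0.002. Mir135a-2, in an intron of the lncRNA gene Rmst, stood at 63.7, 60.4, 60.6 and 60.8 at 37 °C and 65.9, 67.9, 66.1 and 69.8 at 39 °C (difference 0.16, SE 0.039, limma adjusted p = 0.0119), without overlap, and the call was lost in the wider set of regions (limma adjusted p = 0.168). Its summit lay 2079.5 bp upstream, and no library had a peak over the hairpin. Mir7-1, in an intron of Hnrnpk, fell from 41.7 ± 2.90 to 33.4 ± 3.33 (SD, n = 4; limma adjusted p = 0.0175), and the call was lost in the wider set (limma adjusted p = 0.142) and without the 2 deepest libraries (0.121). Its region reached the locus itself in only 3 libraries at 37 °C and 1 at 39 °C. The differences at Mir9-1 (-0.04), Mir9-2 (0.11), Mir124a-3 (-0.08) and Mir132/Mir212 (0.11) did not pass, with limma adjusted p of 0.512, 0.177, 0.234 and 0.145.

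**Figure D4:**
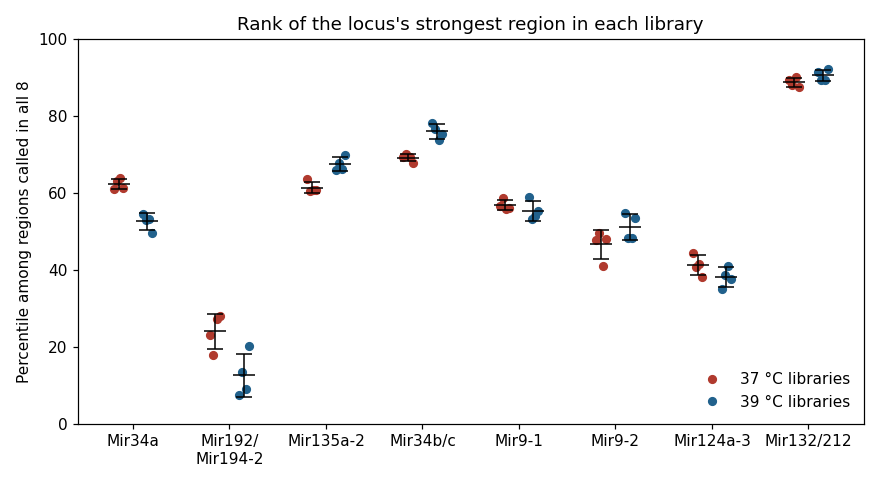
Percentile of the locus's strongest region among the 43735 regions called in all 8 libraries (vertical axis, 0 to 100) for 8 neuronal and p53-linked places. Points are libraries, bars the mean with 1 SD (n = 4 per temperature); the 39 °C points lie below those at 37 °C at Mir34a and above them at Mir34b/c and Mir135a-2, and the temperatures overlap at the other 5 places.

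None of the 10 proliferation-linked and 4 let-7 loci tested, which hold 3 separate regions each, passed limma in either direction. In the mesenchymal and other-lineage lists 1 of 5 and 1 of 4 loci tested passed, both lower, beside the 18.4% higher and 19.9% lower over all regions, and they are named here after their values were seen. Mir199b stood at 52.7, 55.6, 54.8 and 52.9 at 37 °C and 37.3, 31.1, 34.6 and 36.2 at 39 °C (difference -0.49, SE 0.045, limma adjusted p = 0.00016). Mir206 fell from 61.3 ± 1.96 to 55.4 ± 2.12 (SD, n = 4; limma adjusted p = 0.0211), a call lost without 37 °C replicate 2 or 4 or 39 °C replicate 2 or 3 (limma adjusted p from 0.0506 to 0.0575), in the wider set (0.0502) and with the replicate block (0.0689).

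Among Mir-named loci outside promoters, the strongest of those ranking higher at 39 °C were Mir7655 in Mllt10, Mir760, Mir6516 in Snhg20, Mir34b, Mir8111 and Mir7070 in Fbxw9, with differences of 0.12 to 0.21. All 6 calls were lost in the wider set of regions (limma adjusted p from 0.0776 to 0.303), those of Mir7655, Mir760, Mir8111 and Mir7070 also with the replicate block (0.0552 to 0.0884), and those of all but Mir34b without the 2 deepest libraries (0.0547 to 0.219). With 1 library left out, the Mir6516 call was lost for 37 °C replicates 2, 3 and 4 and 39 °C replicates 1 and 2 (limma adjusted p from 0.0629 to 0.0779), and that of Mir7070 for 37 °C replicates 1 and 4 and 39 °C replicates 1, 3 and 4 (0.05 to 0.0957). That of Mir760 was lost for 37 °C replicate 4 (limma adjusted p = 0.0515). The strongest of those ranking lower were Mir6910 in Ptbp1, Mir705, Mir6943 in Grk6, Mir193a, Mir1932 and Mir7236 in Rab40b, with differences of -0.29 to -0.15. Mir6943 lost its call with any 1 library but 39 °C replicate 3 left out (limma adjusted p from 0.0582 to 0.107), with the replicate block (limma adjusted p = 0.0552), in the wider set (0.104) and without the 2 deepest libraries (0.123). Mir705 lost it with any 1 library but 37 °C replicate 3 or 39 °C replicate 1 left out (limma adjusted p from 0.0536 to 0.0711), in the wider set (0.0861) and without the 2 deepest (0.172), and Mir193a in the wider set (0.0587). Mir6910, Mir1932 and Mir7236 kept theirs in every alternative run. All 12 loci stood above the middle of the regions called in all 8 libraries at both temperatures, and the changes in percentile were small. Mir193a, for example, went from 92.2 ± 0.764 to 89.8 ± 0.532 and Mir760 from 87.5 ± 1.41 to 90.8 ± 0.934 (SD, n = 4 each). At Mir6516 the merged region ranked higher at 39 °C while the best peak touching the locus stood lower in its list (89.8 to 93.1 at 37 °C, 72.1 to 77.1 at 39 °C), with summits up to 5019 bp apart between libraries. The summit of Mir6910 lay 8018.5 bp from the hairpin, so its value describes a long neighbouring peak. Mir705 was touched by a peak in only 2 libraries at 37 °C and 1 at 39 °C, with the summit 3142.5 bp away and no peak over the hairpin, and the summit at Mir6943 lay 2453 bp away.

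The 3 promoter-proximal loci of smallest adjusted p in each direction were as follows. Mir6546, in Fcgr3 with the summit 0.5 bp from the hairpin centre, fell from 92.4 ± 0.463 to 75.6 ± 0.789 (difference -0.74, SE 0.032, limma adjusted p = 1.89e-05). Gm47311 and Gm44486, predicted genes antisense to the histone genes Hist2h2aa2 and Hist1h2ag, ranked lower by differences of -0.66 and -0.51, with Gm47311 still at 99.4 at 39 °C. In the other direction, Gm27743 near Ankrd65 rose from 1.66 ± 0.546 to 27.7 ± 4.4 (difference 1.55, SE 0.087, limma adjusted p = 3.24e-05). Gm27646, in an exon of Pink1, a gene of familial Parkinson's disease, rose from 88.3 ± 0.875 to 93.3 ± 0.696 (SD, n = 4; limma adjusted p = 0.000787). The third in that direction was Mir34c, above. At promoter-proximal loci the signal of the microRNA gene and that of the coding promoter cannot be told apart.

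The 6 Mir-named loci outside promoters with the highest mean percentile in the lists were Mir101c, Mir22 and the neighbours Mir23a, Mir27a, Mir24-2 and Mir3074-2. The 4 neighbours on chromosome 8 share a peak 19642 bp long in the median at percentiles of 99.1 to 99.8, with the summit more than 10 kb upstream of Mir23a. Mir22, in Tlcd2, stood at 99.4 to 99.8, from a peak 8313 bp long in the median. That peak covered the hairpin, but its summit lay 2290 bp upstream and outside the region. Mir101c, near the start of chromosome 9, had its flank touched by a peak 38320 bp long in the median that did not reach the hairpin in any library and whose summit was 37760 bp away, so its value of 99.99 to 100 is not one of the hairpin.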

How the data were processed

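ATAC-seq peak lists of 8 SN4741 libraries (4 at 37 °C, 4 at 39 °C) were used. Per the submitters' processing notes and the study's methods, the authors aligned reads to mm10 with Bowtie2 2.4.1, used SAMtools 1.15.1, Picard 2.26.11 and bedtools 2.30.0, and called peaks in each library alone with MACS3 3.0.0a7 on fragments, without a control or local background, at a q-value of 0.05, keeping 1 fragment per position. The deposited columns hold the pileup signal at the summit, its fold enrichment ratio over the library's background, −log10 p-value and −log10 q-value. Duplicate fragments were 15 to 37% of each library per the file headers.

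Loci came from GENCODE M21 and the sequences from RefSeq GRCm38.p6, which has mm10 coordinates. A locus was called where a peak overlapped its region, and autosomal windows of 4090 bp were scored alike, leaving out windows with at least 50% unknown bases. Percentiles are ranks of −log10 q within a list. Regions called in all 8 libraries after merging were ranked, turned into normal scores and tested with limma 3.58.1 (R 4.3.3) with Benjamini-Hochberg adjustment. The limma and overlap steps were tested on simulated data. Planned permutation tests of shares over the loci are not given, since such shares are described by library values. The members and lists were chosen with earlier results of these data known. Named loci were all Mir9, Mir124 and Mir34 loci, listed neuronal and p53-linked loci that passed, the 6 strongest Mir-named loci of each kind outside promoters, and the 3 of smallest adjusted p per direction at promoters. Python 3.11.15, numpy 2.4.6, pandas 2.3.3 and pysam 0.24.0 were used. Peak lists hold no read counts per locus, so no counting interval is given.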

Additional observations from a re-analysis of the deposited data

Results flagged for a closer look

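In 34 groups of 4 libraries examined for a value far from the others, 3 were found. Chance alone would give about 1.7 if the groups were independent. They are overlapping shares from the same 8 lists, so that number is no measure for them. All were low values of 39 °C replicate 4, the library with the fewest peaks: 10.45% of autosomal windows, 14.78% of snRNA genes and 22.42% of loci in lncRNA genes had a peak in it. The share of all microRNA loci in that library, 25.4%, was also the lowest of the 8. With every list cut to the same number of peaks, which leaves this library as it is, the other 39 °C libraries stood at 11.05 to 11.43% of windows, 15.25 to 15.56% of snRNA genes and 23.64 to 24.24% of loci in lncRNA genes, still above it. For all microRNA loci they stood at 25.22 to 26.29%, and 39 °C replicate 4 was no longer the lowest.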

How the results depend on the processing

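The differences in share of all, promoter-proximal and other loci, and the excess over windows, stayed below 0 in every alternative run. That of loci in lncRNA genes turned to 0.4545 points with equal numbers of peaks, an alternative added for the shares by place after seeing the data. With equal numbers of peaks they were -2.69 points for all loci, -0.996 for promoter-proximal loci and -2.90 for the other loci, and -1.91 for the excess over windows, which was -4.80 with all peaks. Counting only peaks over the hairpin gene gave -5.50 and -5.27 for all and other loci, and Mir-named genes alone gave -10.5, -11.5 and -10.4 for all, promoter-proximal and other loci. For promoter-proximal loci a −log10 q of at least 5 gave -5.53 and a flank of 5 kb -3.54. In libraries under 100 M fragments, an alternative chosen after seeing the data, the other loci differed by -5.61. Leaving out 1 library gave -8.63 to -6.96, -7.63 to -6.38 and -8.75 to -6.97 for all, promoter-proximal and other loci, and -5.12 to -4.53 for the excess over windows.

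The 68 loci called at 37 °C alone became 27 with equal numbers of peaks, 43 over the hairpin gene, 43 with a flank of 5 kb, 12 with summit inside and equal numbers (chosen after seeing the data) and 69 to 94 without 1 library, where fewer libraries have to agree. The 0 loci at 39 °C alone became 3, 6 with summit inside, 7 with both, 2 in libraries under 100 M fragments and 0 to 1 without 1 library (1 without 39 °C replicate 3). The 506 loci called in all 8 became 272 over the hairpin gene, 324 among Mir-named genes and 506 to 537 without 1 library. By limma, the 61 higher and 107 lower loci became 36 and 66 in libraries under 100 M fragments, 28 higher and 81 lower in regions called in at least 2 libraries per temperature, and 47 to 62 and 81 to 104 without 1 library. In that wider set, where ranks depend on the length of the lists, 7.88% and 12.6% of all regions passed. Without 1 library, 15.3 to 17.2% and 15.26 to 18.9% did. The cause of these changes was not tested. Ranking by fold enrichment or pileup gave the same order of peaks as −log10 q, with 0 inversions in any library, so these alternatives carry no information. Replicate numbers did not pair the libraries: same-numbered libraries correlated at -0.064 to 0.118. With the replicate block, 49 loci ranked higher and 91 lower, beside 16% and 16.7% of all regions, and the share of loci differed by -7.78 points. Rank directions of single loci turned only where the difference was near 0, at Mir6952 (-0.053 in libraries under 100 M fragments), Mir6966 (-0.027 to 0.029 without 1 library) and Mir7032 (-0.033 to 0.094). Among the comparisons of calls at single loci, 1 also turned direction, where 35 moved and 119 stayed the same. Of 27 named loci called by limma, 17 lost the call in at least 1 alternative, 8 of them with 1 library left out, 10 in libraries under 100 M fragments, 15 in regions called in at least 2 libraries per temperature and 6 with the replicate block, all with the direction kept. The Mir192 and Mir194-2 call was lost without 37 °C replicate 1, 3 or 4 or 39 °C replicate 1 or 3, with differences of -0.583 to -0.38 over the 8 libraries left out in turn.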
